A study of Mus musculus with 12 samples.

Results

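Retinoic acid synthesis, binding and response is described here through 9 mouse genes. Aldh1a1, Aldh1a2 and Aldh1a3 make retinoic acid, Crabp1 and Crabp2 bind it inside the cell, Rara, Rarb and Rarg are its nuclear receptors, and Cyp26b1 breaks it down. The genes were chosen by name, with earlier results of these data known, so their shares of calls are a description and not an independent test. Every probe carrying a member's symbol, an older alias or its accession was taken. This gave 14 probes for 9 genes among the 27669 gene names on the array. The array measured Rarb and Aldh1a3 with 2 probes each, Rarg with 4 and the other members with 1. Of the 14 probes, 12 were well above background on all 12 arrays, Rarb probe 2 was so only on the Pdx1 array, and Aldh1a3 probe 2 was so on none.

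The cells were neural progenitors of strain 129/Ola, and their RNA was hybridised to 12 one-colour Agilent arrays of the mouse genome, with 3 slides of 4 arrays and 1 array for each group. In 10 cultures a pMXs-IRESNeo retrovirus carried the open reading frame of Crebzf, Esx1, Etv6, Gatad2b, Hmga2, Nfxl1, Pax6, Pdx1, Sox11 or Zfp451, and in another that of EGFP, with about 95% of cells expressing the insert. These cultures were selected with G418, against which the vector carries a resistance gene, from 24 h, and harvested at 72 h. The last culture was labelled mock, and neither its virus nor its G418 treatment is given in the sources used here. The series title speaks of 6 interfering and 5 non-interfering factors, and the labels do not say which factor is which, so each array is described by its own label. All cells are thus of 1 strain and, apart from the mock culture, passed through infection and drug selection, and the vector expresses its insert in any infected cell of the culture.

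Retinoic acid is made from vitamin A: retinol is oxidised to retinaldehyde, and the aldehyde dehydrogenases of the Aldh1a family oxidise that to retinoic acid. The acid enters the nucleus and binds its receptors, which sit with a retinoid X receptor on direct repeats of a short DNA motif and switch from repressing to activating nearby genes, and enzymes of the Cyp26 family clear it. In the developing nervous system this signal patterns the hindbrain and spinal cord and promotes the differentiation of neural progenitors, and the meninges around the brain are a known source of it.

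Rarb is the textbook example of a receptor gene that its own ligand switches on, through such a repeat in its promoter, and Cyp26a1, the relative of Cyp26b1, is another. The stretches just before their transcription starts are printed to show that repeat, with that of Cyp26b1 for comparison. All are written 5′ to 3′ on the gene's own strand from RefSeq (GRCm38.p6), and capitals mark a match to a direct repeat with 5 bases between its units. The Rarb stretch is chr14:16575477-16575556 on the minus strand, the Cyp26a1 stretch chr19:37697746-37697807 on the plus strand, and the Cyp26b1 stretch chr6:84593811-84593890 on the minus strand.
Rarb: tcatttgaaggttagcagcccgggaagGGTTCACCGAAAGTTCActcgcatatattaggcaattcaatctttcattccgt
Cyp26a1: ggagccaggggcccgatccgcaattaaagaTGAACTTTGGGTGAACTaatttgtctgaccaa
Cyp26b1: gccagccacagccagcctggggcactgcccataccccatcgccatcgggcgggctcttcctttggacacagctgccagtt

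The units searched on both strands, in windows from 250 bases before to 50 after each start, were AGGTCA, which alone was in 16.3% of windows, AGTTCA, in 14%, GGTTCA, in 10.4%, and GGGTCA, in 13.7%, and a repeat could join any of the 4. A repeat with 5 bases between its units was found in 32 of 32851 windows, 0.0974%, and among the 12 windows of the 7 member genes with an entry only in that of Rarb, 53 to 37 bases before the start. In Cyp26a1 the match lay on the opposite strand, 32 to 16 bases before the start. Repeats with 1 or 2 bases between the units, in 0.222% and 0.268% of all windows, matched none of the member windows. Crabp2 and Aldh1a3 had no entry. A match is a run of letters and says nothing about binding in these cells, and where none was found only these letters in these windows were absent.

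Across the arrays, 6 of the 9 genes, Rarb, Crabp1, Aldh1a1, Aldh1a2, Aldh1a3 and Cyp26b1, stood at least 2-fold above both controls on the Crebzf, Esx1, Pdx1, Sox11 and Zfp451 arrays, and all of them but Aldh1a2 did so on the Pax6 array. None did so on the Hmga2, Gatad2b, Etv6 or Nfxl1 array. Of all 20968 tested genes, 1 probe a gene, the same rule called 10.4% to 12.1% on each of the former arrays. On each of the latter it called 0.47% to 1.21%. Rara, Rarg and Crabp2 met that rule on no array, and no member probe stood 2-fold below both controls anywhere. Fold changes of the called probes well above background on all arrays ran from 2.24 (Aldh1a1, Sox11 array) to 6.19 (Aldh1a3, Pax6 array) against the mean of the controls.

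Levels throughout are log2 signals relative to each array's 75th percentile, so that 0 is that percentile, and they order the arrays for 1 probe but not different probes. The rule for a higher call asked for 2-fold or more over EGFP and over mock alike, with the factor's array well above background, and that for a lower call for 2-fold or more under both, with both controls well above background. With 1 array a group there is no replicate error and no p-value. The errors available are those of the spots: the image software's own error was close to 10% of the signal, or 0.144 on the log2 scale, for the brighter member probes, and the 245 probes spotted 10 times had a median SD of 0.0441 to 0.0821 within an array. A gap between neighbours in the order of arrays is set against the spot errors of both arrays combined. That error leaves out differences between cultures and slides. EGFP and mock themselves differed by more than it for Crabp1 (0.29) and Aldh1a1 (0.27). EGFP and mock, the same controls for all 10 factors, differed by a median of 0.0723 over the probes well above background on all arrays and by less than 0.351 for 95% of them. Some gaps beyond the spot error stayed below 0.351 and are not read as differences between cultures. Among them were 0.27 for Rarb (Esx1 to Pdx1), 0.23 for Crabp1 (Zfp451 to Esx1) and 0.24 for Cyp26b1 (Pax6 to Pdx1). Others were 0.26 for Crabp2 (Pax6 to Crebzf) and 0.30 for Aldh1a2 (Pax6 to Etv6).

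The plot of levels by array shows each member probe with its spot error.

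**Figure D1:**
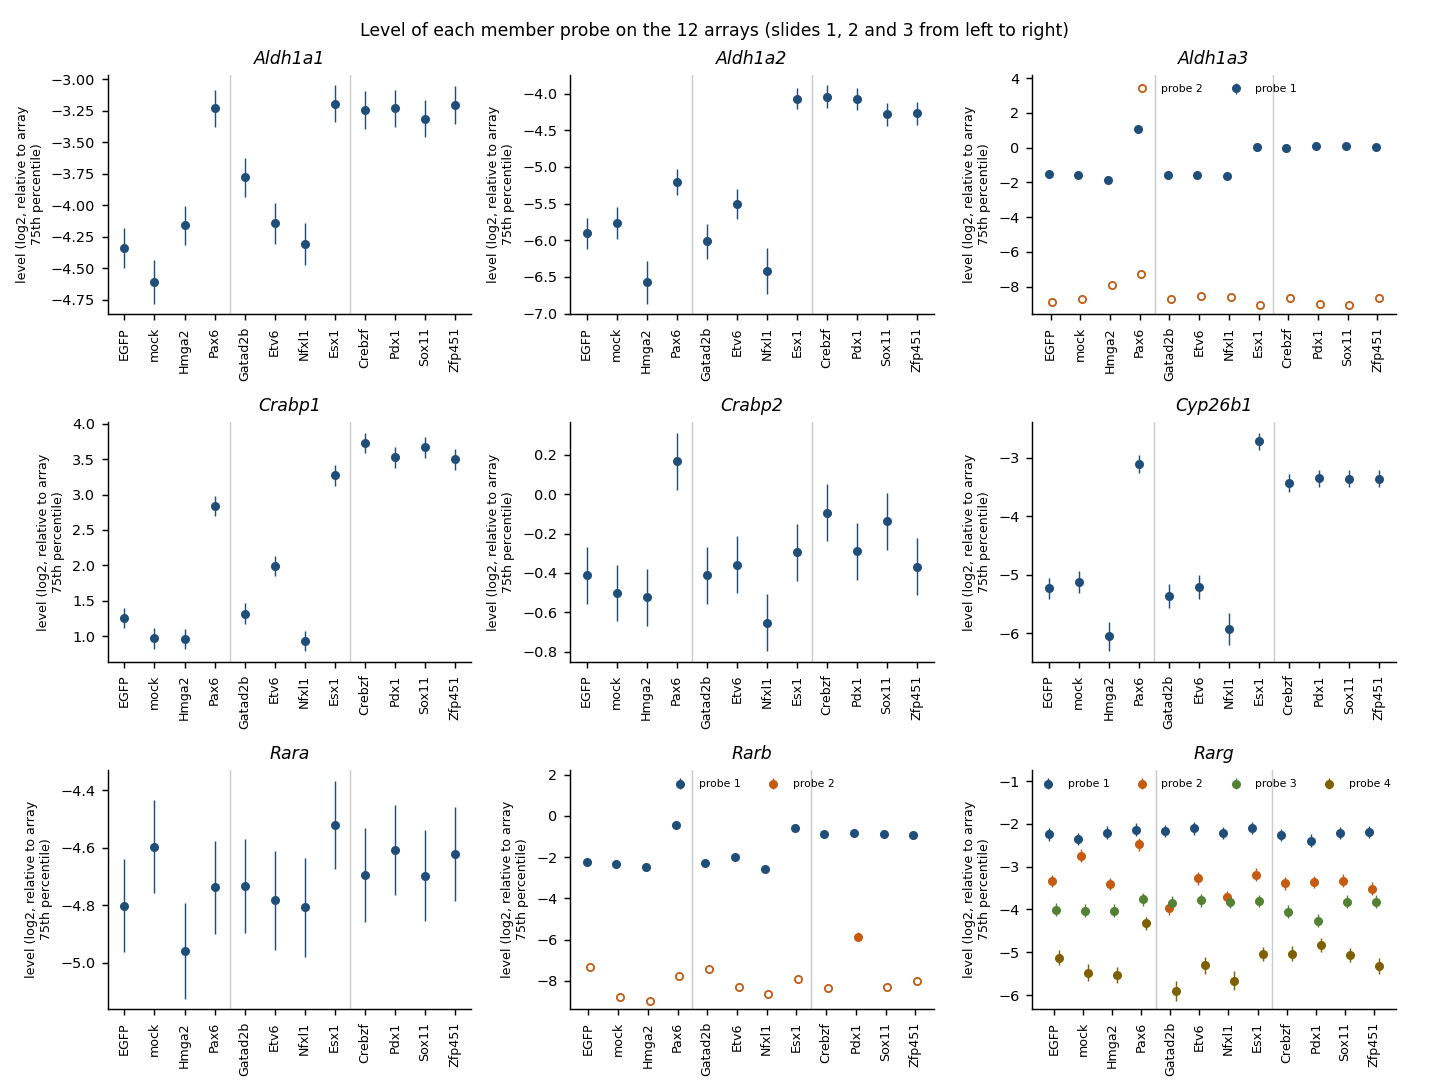
Level of each member probe (log2, relative to the array's 75th percentile) on the 12 arrays, in the order of the slides, which grey lines separate. Each panel has its own vertical scale, bars are the spot error, and open points were not well above background. Crabp1 lies between 2.84 and 3.73 on the Crebzf, Esx1, Pax6, Pdx1, Sox11 and Zfp451 arrays and at or below 1.99 on the others, whereas Rara lies between -4.96 and -4.52 on all 12.

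Of the 14 member probes, the rule called 5 higher on the Pax6 array, 6 on each of the Esx1, Crebzf, Sox11 and Zfp451 arrays and 7 on the Pdx1 array, which makes 36 calls in 140 pairs of probe and factor array. The same rule called 11.2% of the 31464 tested probes on the Pax6 array, 10.6% on Esx1, 9.57% on Crebzf, 9.75% on Pdx1, 9.73% on Sox11 and 9.46% on Zfp451. On the arrays without a member call it called 0.699% (Hmga2), 0.845% (Gatad2b), 1.10% (Etv6) and 0.410% (Nfxl1) of them. Probes called higher on 6 or more factor arrays made up 6.50% of those tested, against 5 of the 14 member probes. The tested probes called lower on 1 or more factor arrays came to 16.0%, against none of the member probes. The median difference of the 14 member probes from the control mean was 0.80 on the Pax6 array, 0.86 on Pdx1 and 0.19 to 0.32 on Esx1, Crebzf, Sox11 and Zfp451, where the median over all tested probes was -0.04 on Pax6 and -0.18 to -0.14 on the others. The 14 include the dim Aldh1a3 probe 2, at 1.54 on Pax6 without being well above background, and the dim Rarb probe 2, at 2.19 on Pdx1. Both lay between -0.28 and 0.18 on Esx1, Crebzf, Sox11 and Zfp451, so the member medians do not order these arrays. On Hmga2, Nfxl1, Gatad2b and Etv6 the member median ran from -0.22 to 0.15 and that of all tested probes from -0.07 to -0.01.

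**Figure D2:**
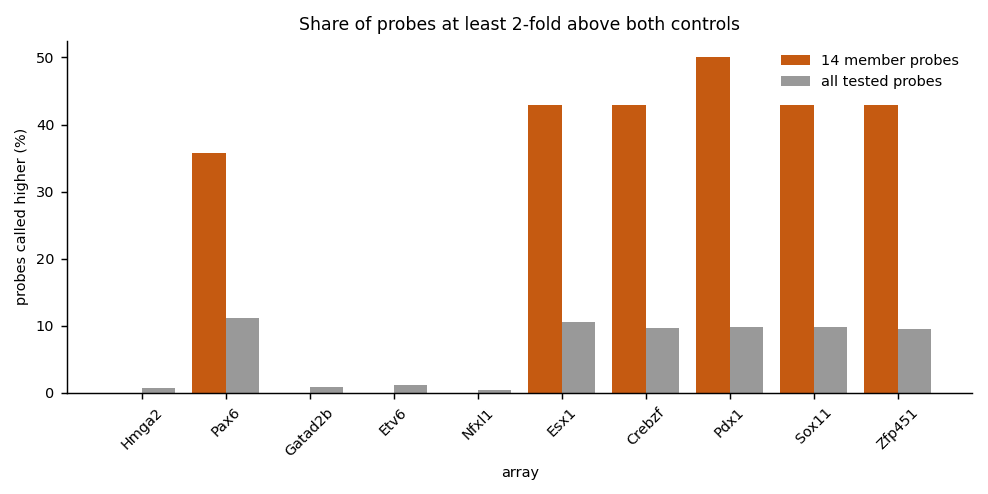
Share of probes at least 2-fold above both controls on each factor array, in percent, for the 14 member probes (orange) and the 31464 tested probes (grey). Member shares are 35.7% on Pax6, 7 of 14 probes on Pdx1 and 42.9% on Sox11, Crebzf, Zfp451 and Esx1, and 0% on the other 4 arrays.

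Among the enzymes of synthesis, Aldh1a3, the form that acts in the developing eye and nose, held the highest called fold of any member. Its probe 1 (chr7:62248866-62248925, minus strand, mm7) read -1.54 on EGFP, -1.60 on mock, -1.85 on Hmga2, -1.63 on Nfxl1, -1.57 on Gatad2b and -1.56 on Etv6. It read 1.06 on Pax6, 0.03 on Esx1, -0.05 on Crebzf, 0.10 on Pdx1, 0.07 on Sox11 and 0.05 on Zfp451. Those 6 arrays were the called ones, which the rule itself places above the rest. Pax6 stood above all the others, with a gap to the next array larger than the spot error. Against the control mean Aldh1a3 was 6.19-fold higher on Pax6 and 2.87- to 3.19-fold higher on the other 5 called arrays, while Hmga2, Gatad2b, Etv6 and Nfxl1 lay within 0.28 of that mean on the log2 scale. Probe 2 of the gene (chr7:62266988-62267047) was not well above background on any array and gives no level.

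Aldh1a2, the main enzyme of retinoic acid synthesis in the early embryo and in the meninges, was called higher on 5 arrays. Its probe (chr9:71330506-71330565, plus strand) read -5.90 on EGFP, -5.76 on mock, -6.57 on Hmga2, -6.42 on Nfxl1, -6.01 on Gatad2b and -5.51 on Etv6. It read -4.07 on Esx1, -4.04 on Crebzf, -4.07 on Pdx1, -4.28 on Sox11 and -4.27 on Zfp451, and -5.21 on Pax6. The 5 called arrays stood 2.93- to 3.47-fold above the control mean. Each gap between neighbours among them was within the spot error, and the highest, Crebzf, stood 0.24 above the lowest, Sox11, on the log2 scale. Pax6, 1.54-fold above that mean, lay between them and all the others by more than the spot error, and Aldh1a2 was the only one of the 6 genes without a call on the Pax6 array. Hmga2 and Nfxl1 were 0.74 and 0.58 below the control mean on the log2 scale, not called.

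Aldh1a1, an enzyme with broad expression that also marks dopaminergic progenitors, showed the smallest called differences. Its probe (chr19:20343581-20343640, plus strand) read -4.34 on EGFP, -4.61 on mock, -4.16 on Hmga2, -4.31 on Nfxl1, -3.78 on Gatad2b and -4.14 on Etv6. On Pax6 it read -3.23, on Esx1 -3.20, on Crebzf -3.24, on Pdx1 -3.23, on Sox11 -3.31 and on Zfp451 -3.20. These 6 readings lay within the spot error of their neighbours and were 2.24- to 2.43-fold above the control mean, and the next array, Gatad2b, was 1.62-fold above it and not called. Aldh1a7, a near-identical copy of Aldh1a1 whose transcripts a probe can share, was called on the same 6 arrays, 2.61-fold above the control mean on Pax6 and 4.72- to 5.13-fold above it on the other 5.

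Crabp1, which binds retinoic acid in the cytoplasm and is thought to steer it towards breakdown, had the largest called differences on 4 arrays, Crebzf, Pdx1, Sox11 and Zfp451. Its probe (chr9:54797711-54797770, plus strand) read 1.26 on EGFP, 0.97 on mock, 0.96 on Hmga2, 1.32 on Gatad2b and 0.93 on Nfxl1. Levels were 2.84 on Pax6, 3.27 on Esx1, 3.73 on Crebzf, 3.53 on Pdx1, 3.67 on Sox11 and 3.50 on Zfp451. These 6 were 3.30-fold (Pax6) to 6.13-fold (Crebzf) above the control mean, and both Pax6 and Esx1 lay below the other 4 by more than the spot error. Etv6, at 1.99, stood apart from both sets by more than the spot error, 1.84-fold above the control mean and not called.

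Crabp2, the relative that carries retinoic acid to its nuclear receptors, was not called on any array. Its probe (chr3:88062561-88062620, plus strand) ranged from -0.65 on Nfxl1 to 0.17 on Pax6, with a median of -0.36 over the 12 arrays. Pax6 was the array farthest from the controls, 1.54-fold above their mean, and separated from the next array by more than the spot error. All other factor arrays lay between 0.87- and 1.29-fold of that mean.

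Of the 3 receptors, Rarb alone was called. Its probe 1 (chr14:14246146-14246205, minus strand), spotted 10 times on each array, had an SD between spots of 0.03 to 0.08 within an array. It read -2.23 on EGFP, -2.31 on mock, -2.48 on Hmga2, -2.56 on Nfxl1, -2.28 on Gatad2b and -1.99 on Etv6. On the called arrays it read -0.43 on Pax6, -0.57 on Esx1, -0.87 on Crebzf, -0.84 on Pdx1, -0.88 on Sox11 and -0.93 on Zfp451. The gene, whose promoter window holds the repeat printed above, was 3.58-fold above the control mean on Pax6, 3.25-fold on Esx1 and 2.53- to 2.70-fold on the others. Pax6 and Esx1 stood above the others by more than the spot error, with a gap of 0.27 from Esx1 to Pdx1. Etv6 was the highest of the 6 uncalled arrays, which the call rule itself places below the called ones.

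Rarb probe 2, named in the file from an mRNA of the beta 4 form (chr14:14362927-14389669, minus strand), was well above background only on the Pdx1 array, at -5.86. On that array it met the call rule, and set against the lowest well-above-background signals of the control arrays it was at least 1.75-fold higher, a bound under 2-fold. A probe that is no member and carries the gene name Top2b, although its description names Rarb on the opposite strand, was likewise well above background only on Pdx1, at -3.72 against -9.13 to -6.58 elsewhere, and was singled out after its values were seen.

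Rara, the most widely expressed receptor, was not called on any array. Its probe (chr11:99079584-99079643, plus strand) ran from -4.96 on Hmga2 to -4.52 on Esx1, with a median of -4.71, and no array differed from its neighbour in that order by more than the spot error. Small gaps between neighbours do not bound the whole range, which was 0.44, and Hmga2 lay 0.36 below mock. Factor arrays lay between 0.84- and 1.13-fold of the control mean.

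Rarg, a receptor linked to progenitor cells and skeletal tissue, was read by 4 probes that fell into pairs. Probes 1 and 3 (chr15:102222035-102222094 and chr15:102222347-102224987, minus strand), both listed for the RefSeq mRNA, stayed within -2.39 to -2.10 and -4.26 to -3.76, with Pdx1 lowest on each. Probes 2 and 4 (chr15:102228137-102228196 and chr15:102228231-102228290) are listed for the 5′ end of the gamma 3 mRNA, and both were highest on Pax6, at -2.48 and -4.32, and lowest on Gatad2b, at -3.97 and -5.90. On Pax6 they were 1.47- and 1.97-fold above the control mean, and on Gatad2b 1.90- and 1.51-fold below it, with no call in either direction. EGFP and mock differed by 0.59 on probe 2 and 0.35 on probe 4, against 0.10 and 0.03 on probes 1 and 3.

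Cyp26b1, which clears retinoic acid and protects tissues such as the hindbrain from it, was called on the same 6 arrays as Rarb, Crabp1, Aldh1a1 and Aldh1a3. Its probe (chr6:84601274-84601333, minus strand) read -5.23 on EGFP, -5.12 on mock, -6.06 on Hmga2, -5.93 on Nfxl1, -5.37 on Gatad2b and -5.21 on Etv6. Higher levels were read on Esx1 (-2.72), Pax6 (-3.11), Pdx1 (-3.35), Sox11 and Zfp451 (-3.36 each) and Crebzf (-3.43). Esx1 was 5.49-fold and Pax6 4.21-fold above the control mean, each above the next array by more than the spot error, and the other 4 were 3.35- to 3.55-fold above it. Hmga2 and Nfxl1 read 1.84- and 1.69-fold below the control mean, the same arrays on which Aldh1a2 was lowest, and neither was called. These lower readings of both dim probes shrank with the other background correction described below.

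**Figure D3:**
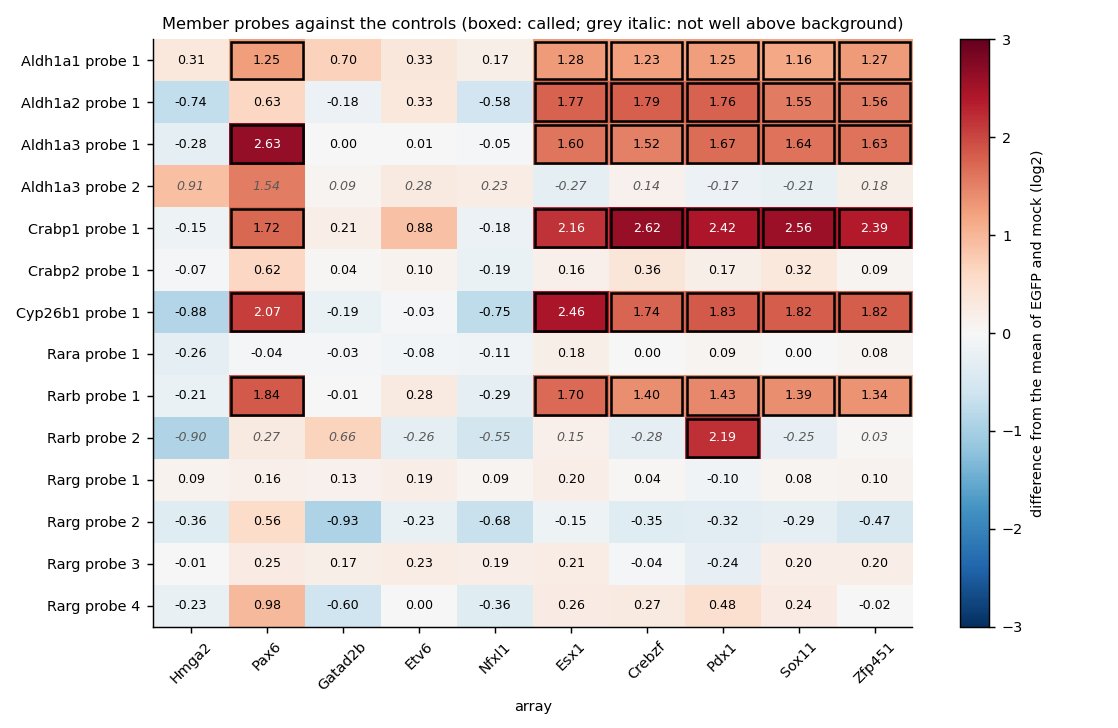
Difference of each member probe from the mean of EGFP and mock on the 10 factor arrays, on the log2 scale. Boxes mark calls, and grey italic values come from probes not well above background on that array. Calls sit on the Crebzf, Esx1, Pax6, Pdx1, Sox11 and Zfp451 arrays and reach 2.63 (Aldh1a3, Pax6 array), and the Rara row stays between -0.26 and 0.18.

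The slides limit these comparisons. EGFP and mock shared slide 1 with Pax6 and Hmga2, and slides 2 and 3 held no control, so every fold over the controls on these slides crosses slides. Slide 3 held the arrays of Sox11, Crebzf, Zfp451 and Pdx1, all with member calls, so on slide 3 slide and factor cannot be told apart. On slide 1, Pax6 stood 3.47- to 4.13-fold above each of the other 3 arrays for Rarb probe 1, 2.99- to 3.67-fold for Crabp1, 6.06- to 7.52-fold for Aldh1a3, 4.05- to 7.73-fold for Cyp26b1 1.47- to 2.58-fold for Aldh1a2 and 1.91- to 2.60-fold for Aldh1a1. On slide 2, Esx1 stood above Gatad2b, Etv6 and Nfxl1 by 2.68- to 3.98-fold for Rarb, 2.43- to 5.06-fold for Crabp1, 3.01- to 3.15-fold for Aldh1a3, 2.72- to 5.10-fold for Aldh1a2, 5.59- to 9.26-fold for Cyp26b1 and 1.497- to 2.16-fold for Aldh1a1. With each probe centred within its slide, 10 of the 36 calls were left, 5 on Pax6 and 5 on Esx1, and none on slide 3, where centring takes off whatever its 4 arrays share. Aldh1a2 on the Sox11 and Zfp451 arrays then turned to -0.14 and -0.13.

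The background correction mattered for the dim probes. With the normexp correction and an offset of 50, 19 of the 36 calls were left: those of Rarb probe 1, Crabp1 and Aldh1a3 probe 1 on all 6 arrays and that of Cyp26b1 on Esx1. Aldh1a1 then lay 0.44 to 0.52 above the control mean on its 6 arrays, Aldh1a2 0.55 to 0.67 on its 5 and Cyp26b1 0.68 to 0.89 on Pax6, Crebzf, Pdx1, Sox11 and Zfp451, on the log2 scale. On Hmga2 and Nfxl1 the differences from the control mean were then -0.22 and -0.22 for Cyp26b1 and -0.11 and -0.17 for Aldh1a2. Scaling to each array's median in place of its 75th percentile removed the 6 calls of Aldh1a1, whose differences from the control mean were then 0.91 on Pax6, 0.99 on Sox11 and 1.05 to 1.11 on the other 4 arrays, under 2-fold above at least 1 control.

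The 74 other genes of the pathway were listed by role, also with earlier results of these data known. Of them, 72 were on the array and 63 were well above background on at least 1 array, 1 probe a gene. Of these 63, 24 were called higher on 1 or more factor arrays and 11 lower, with none in both and 28 in neither. That is 38.1% higher and 17.5% lower, where the same rule gave 19.6% and 16.4% of the 20968 tested genes. With normexp the counts were 14 and 1, and with slides centred 21 and 5. The shares of all tested genes under these settings are not given here. These counts therefore cannot be set against the 19.6% and 16.4%. By array, 16 to 19 list genes were called higher on each of Pax6, Esx1, Crebzf, Pdx1, Sox11 and Zfp451 and 4 to 8 lower, against at most 2 higher and 1 lower on Hmga2, Gatad2b, Etv6 and Nfxl1. On those 6 arrays the list genes called higher were 25.4% to 30.2% of the 63, where the same rule called 10.4% to 12.1% of all tested genes, and those called lower were 6.35% to 12.7%, against 7.02% to 8.42% of all tested genes.

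Genes of retinol uptake and binding were called in both directions. Rbp4, the carrier of retinol in blood, was 4.81-fold above the control mean on Pax6 and 8.61- to 11.35-fold above it on Esx1, Crebzf, Pdx1, Sox11 and Zfp451. Rbp7, which binds retinol inside the cell, was 2.56- to 3.60-fold above it on those 6 arrays. Rbp2, the intestinal form, was called lower on 4 arrays, Esx1, Crebzf, Nfxl1 and Zfp451, by 2.23- to 3.08-fold. Stra6, the receptor that takes up retinol, was not called. The second probes of Rbp7 and Rbp2 were well above background on 1 array and on none.

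Of the 15 tested genes that oxidise or reduce retinol and retinaldehyde, 4 were called higher and 3 lower. These shares, 26.7% and 20.0%, are not far from the 19.6% and 16.4% of all tested genes. Dhrs3, which turns retinaldehyde back into retinol, was called on 5 arrays at 2.69- to 3.24-fold and reached 1.90-fold on Pax6. Rdh10, the retinol dehydrogenase needed in the embryo, was called only on Esx1, at 1.11 above the control mean on the log2 scale, and read 0.71 to 0.94 above it on the other 5 arrays of that set. Adh7, an alcohol dehydrogenase that can oxidise retinol, was called lower on 4 arrays (Pax6, Esx1, Crebzf and Pdx1, by 2.16- to 2.49-fold) and Rdh13, an enzyme of the retinol dehydrogenase family, lower on 1 (Esx1, 2.10-fold). Aldh1a7, described above, was among the 4. The second probe of Dhrs3 was called on 4 arrays and that of Rdh13 on none.

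Cyp26a1 holds the same kind of repeat in its promoter window as Rarb, and whether the repeat acts in these cells was not tested. The gene Cyp26a1 was not called higher on any array. It read -6.30 on EGFP and -6.31 on mock and was 1.33-fold below the control mean on Pax6 and 1.22-fold below it on Esx1. On Crebzf, Sox11 and Zfp451 it was called lower and not well above background, at least 1.24- to 1.48-fold lower when set against the lowest well-above-background signal. Fabp5, which delivers retinoic acid to the other receptor Ppard, was called lower on all 6 arrays by 2.10- to 3.83-fold, and Ppard on Crebzf alone by 2.11-fold.

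The retinoid X receptors Rxra and Rxrb, the partners of the members' receptors, were not called, and neither were 10 of the 12 tested coregulators. Coregulators called higher made up 16.7% of those tested, near the 19.6% of all tested genes, and none was called lower, against 16.4%. Zfp423, a zinc finger protein that binds the receptor complex, was 5.36- to 11.28-fold above the control mean on the 6 arrays, and its second probe was called on 5. Ncoa1, a coactivator, was called on 5 arrays at 2.20- to 3.01-fold and was 1.98-fold above the mean on Pax6.

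Of the 28 tested genes known to respond to retinoic acid in other settings, 16 were called higher and 5 lower. That is 57.1% higher, against 19.6% of all tested genes, and 17.9% lower, near the 16.4% of all tested genes. Pdk4, a kinase that restrains glucose oxidation, was 11.39- to 14.82-fold above the control mean on the 6 arrays and 2.09-fold above it on Etv6. Tgm2, tissue transglutaminase, was 6.08- to 7.50-fold above it, with its 3 probes called alike. Hoxd4, a patterning gene of the hindbrain and spinal cord, was well above background only on the 6 arrays, where it was at least 3.13-fold higher on Pax6 and at least 6.18- to 8.09-fold higher on the other 5. Rarres1, named for its response to a retinoid, was also well above background on those arrays alone, at least 1.32- to 2.22-fold higher. Hoxa2, a patterning gene of the hindbrain, was called lower on Crebzf, Pdx1 and Zfp451 by 1.13 to 1.18 on the log2 scale, and Gprc5a, a membrane receptor induced by retinoids, was called lower on all 6 by 1.71 to 2.07. Rdh10, Stra6, Hoxa2 and Gprc5a were named after their values were seen.

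**Figure D4:**
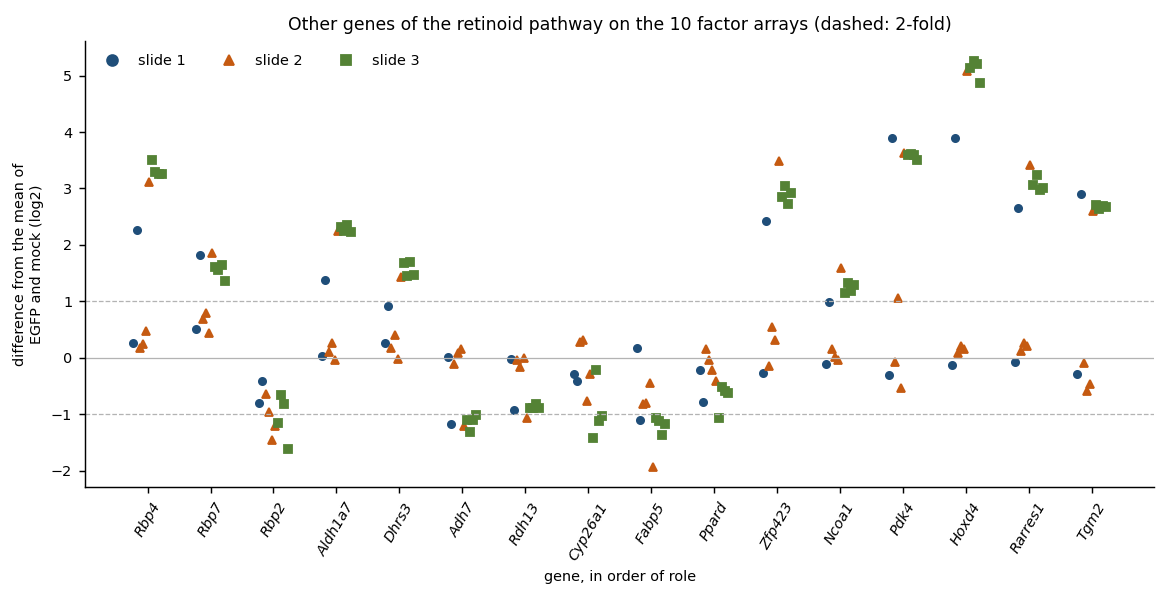
Difference from the mean of EGFP and mock (log2) for the named genes of the pathway list on the 10 factor arrays, with circles for slide 1, triangles for slide 2 and squares for slide 3. Dashed lines mark 2-fold. Rbp4 lies at 2.27 on Pax6, between 3.11 and 3.50 on Esx1, Crebzf, Pdx1, Sox11 and Zfp451 and at or below 0.47 on the other 4 arrays, and Fabp5 lies between -1.94 and -1.07 on those 6 arrays.

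Profiles over the 12 arrays were compared by the root-mean-square difference of log2 levels after each gene's own mean was taken off, as a description. On each of the 12 arrays the same 16101 genes were well above background, and the 12567 of them with a matched name that were neither clones nor predicted genes were compared. Nearest to Rarb, whose own levels spread 0.80 around their mean, were Ppp1r3d (0.0752), Acot11 (0.0839) and Gpha2 (0.0840). Nearest to Crabp1 (spread 1.14) were Gng13 (0.113), Cys1 (0.161) and Nkd1 (0.175), and to Aldh1a3 (0.96) Abcg1 (0.128), Gdpd2 (0.131) and Fcgrt (0.169). Nearest to Aldh1a1 (0.53) were Ccl27a (0.127), Trpt1 (0.128) and Hyi (0.134), to Aldh1a2 (0.94) Adgrv1 (0.189), Stk33 (0.235) and Cngb1 (0.236), and among the nearest to Cyp26b1 (1.18) were Mecom (0.193) and Cxxc4 (0.228). Among these 6 called members, Rarb and Aldh1a3 were closest (0.259) and Aldh1a1 and Cyp26b1 farthest apart (0.742), and Rara, Rarg and Crabp2 were not compared in this way.

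Summed marker levels of some other cell types were higher on the arrays with member calls. On these arrays the call rule gave 10.4% to 12.1% of all tested genes as higher and 7.02% to 8.42% as lower. Whether the short marker lists differ from these shares was not tested. The fibroblast list, 12 of 12 genes tested, summed on the linear scale to 96.4 to 107.2 times the 75th percentile on EGFP, mock, Hmga2, Gatad2b, Etv6 and Nfxl1 and to 230 to 247 times on Pax6, Esx1, Crebzf, Pdx1, Sox11 and Zfp451, with 6 to 9 of its genes called higher and at most 1 lower on each of the latter. Meningeal fibroblast markers without the members, 10 of 10 tested, summed to 13.7 to 15.5 and 20.7 to 21.6, but 2 of them were called higher and 1 to 2 lower on each of those 6 arrays. Of this list Zic1 read 2.49 to 2.62 and 3.31 to 3.39 on the log2 scale, and Foxc2 was lower there, at -5.58 to -5.26 against -3.81 to -3.19. Astrocyte markers, 7 of 8 tested, summed to 6.59 to 9.97 and 15.2 to 19.6, with 2 to 4 called higher and none lower. Apoe of this list read 2.77 to 3.63 on those 6 arrays against at most 0.95 elsewhere. Gja1 was lower there, at 0.98 to 1.21 against at least 1.31. Gfap was well above background on EGFP alone, so the rule could not call it lower. Neuronal markers, 8 of 8 tested, summed to 1.03 to 1.16 and 1.76 to 2.03, with 3 to 4 called higher and at most 1 lower, and Elavl4 among them read -4.12 to -3.41 against -3.18 to -2.82 elsewhere. Oligodendrocyte markers, 7 of 7 tested, had none called higher and at most 2 lower. Of the neural progenitor list 10 to 12 of 13 genes were well above background on each array, Nes, Sox2 and Vim on all 12, and on those 6 arrays 2 to 3 were called higher and at most 2 lower. Nes, its defining filament, read 1.92 to 2.35 there against 3.34 to 3.61 elsewhere, whereas Slc1a3 read 2.11 to 2.75 against 1.15 to 1.66, Notch1 -0.12 to 0.15 against -0.996 to -0.56 and Pax6 -1.27 to -0.84 against -3.47 to -2.60. Endothelial markers, 4 of 6 tested, summed to at most 0.0569 on any array and microglial markers, 5 of 6 tested, to at most 0.239. Pecam1, Cdh5 and Itgam of these lists were not well above background anywhere, while endothelial Tek and microglial Cd68 were so on all 12 arrays. In RNA from a whole culture, more cells of a type and more RNA per cell cannot be told apart, and the part of these markers in the members' levels was not tested.

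**Figure D5:**
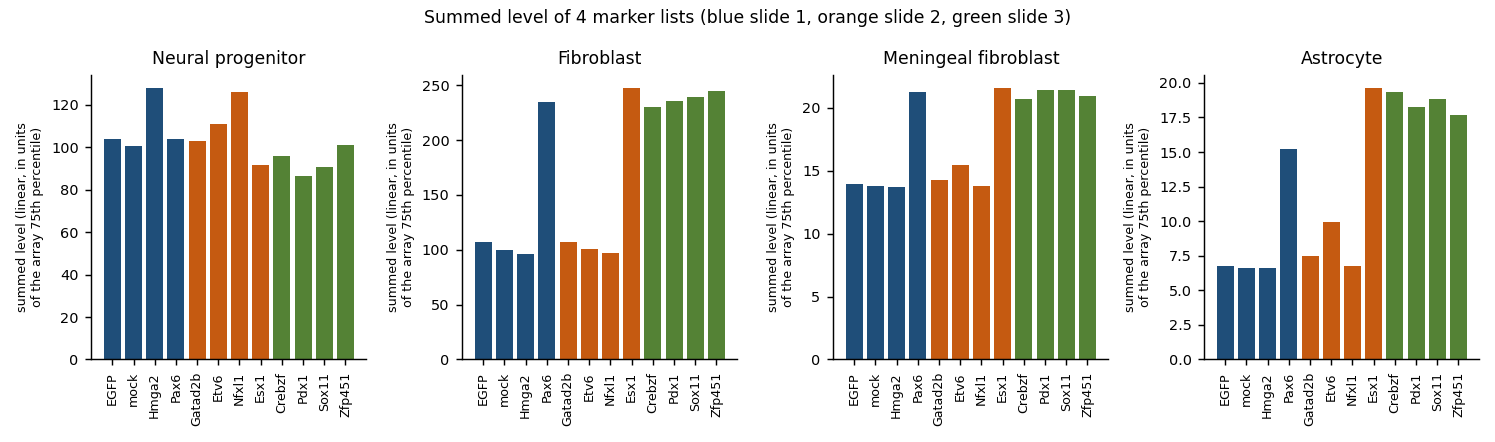
Summed level of the genes of 4 marker lists on each array, on the linear scale in units of the array's 75th percentile, coloured by slide. The fibroblast sum is 230 to 247 on Pax6, Esx1, Crebzf, Pdx1, Sox11 and Zfp451 and 96.4 to 107.2 on the other 6 arrays, and the neural progenitor sum runs from 86.3 to 128. The fibroblast sum is mostly Col1a1, Col1a2 and Col3a1. The neural progenitor sum is mostly Vim, which reads 6.19 to 6.79 on the log2 scale, and does not show the lower levels of Nes.

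Arrays were alike in strength, with a 75th percentile of 823.5 to 1026 signal units, 62.6% to 69.1% of probes well above background and no saturated spot. Of the 10 expressed factors, 9 had tested probes of their own gene, 25 in all. On the Pax6 array the 3 Pax6 probes read 2.52- to 3.48-fold of the control mean, and the 22 probes of the other 8 factors read 0.56- to 1.26-fold on their own arrays. The own array was the highest of the 12 for 3 of the 25 probes, 1 each of Pax6, Hmga2 and Etv6. The brightest Pax6 probe was 1.53 to 1.77 above the control mean on the log2 scale on Esx1, Crebzf, Pdx1, Sox11 and Zfp451 too. Whether the probes lie within the expressed reading frames was not examined, and the arrays are named by their labels throughout.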

How the data were processed

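The deposited files hold Agilent Feature Extraction 10.7.3.1 output, and per the file headers a spot's value is its processed intensity, linear and with background already subtracted, and probe positions are in mm7. Flags and spot types in other columns are those the authors' image software set, per the file headers. The deposited value table equals that intensity on every array. Further normalisation by the authors: not given in the sources used here.

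Outlier spots, by the software's flag, were dropped and the spots of 1 probe averaged (41174 probes), and log2 intensities were set relative to each array's 75th percentile over non-control spots. The 31464 probes well above background on any array were tested by a 2-fold rule against both controls, since 1 array a group allows no test. That scaling leaves the median of all tested probes 0.14 to 0.18 below the controls on Esx1, Crebzf, Pdx1, Sox11 and Zfp451 (log2). The number of arrays limits the precision. The members, gene lists and rules were chosen with earlier results of these data known. All members were named, and from the pathway list up to 4 genes a role, those called on the most arrays; other list genes were picked after their values were seen. Likeness named up to 3 genes a member. Some genes these rules chose are not reported here. The call rule was tested on simulated data. Python 3.11.15, numpy 2.4.6, pandas 2.3.3, R 4.3.3 and limma 3.58.1 were used. Alternatives covered scaling, background, floor, outlier spots, fold, control, dim probes, probes of a gene and slide.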

Additional observations from a re-analysis of the deposited data

How the results depend on the processing

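Of the 36 higher calls of member probes, 19 remained with normexp, 20 with a 3-fold rule and 10 with slides centred, where Aldh1a2 turned to -0.1449 on Sox11 and -0.1314 on Zfp451; the cause of the normexp change was not tested. Quantile scaling (31), array median (30), the floor (35), a 1.5-fold rule (38), EGFP alone (36), mock alone (38), kept outlier spots (36), only probes well above background on all arrays (35), no such requirement (37), 1 probe a gene (35) and gene means (25) stayed within 1.5 times. Lower calls of member probes rose from 0 to 4 with a 1.5-fold rule and to 1 with mock alone. Pathway genes called in either direction, 35 (24 higher, 11 lower), came to 15 with normexp (14 and 1), 18 with a 3-fold rule (14 and 4) and 26 with slides centred (21 and 5), and stayed within 1.5 times with quantile scaling, the floor and either control alone. The deposited value table equals the signal used and gives the same values. Each group holds 1 array, so no array could be left out of a group. No paired analysis was possible because each group has 1 array. Signals close to background, as for Rarb probe 2 and Aldh1a3 probe 2, limit what can be read from those probes.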
